A study of Homo sapiens with 42 samples.

Results

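The 10 genes described here encode the immune checkpoint ligands and costimulators of acute myeloid leukaemia (AML) cells: CD86 and CD80, CD274 (PD-L1) and PDCD1LG2 (PD-L2), CD47 and its receptor SIRPA, LGALS9 (galectin-9) and its receptor HAVCR2 (TIM-3), VSIR (VISTA) and TNFRSF14 (HVEM). They were chosen by name from a deposited table of 60240 genes, by a rule that used no values but with earlier results of these data known. Of the 10, 9 passed the filter on low values and were tested among 22168 genes. PDCD1LG2 did not pass the filter. The study treated human AML cell lines with decitabine, a cytidine analogue that is built into DNA and traps DNA methyltransferases, or with its solvent DMSO. Each group was a line without engineered changes (genotype given as wild type), treated with 100 nM decitabine on 3 successive days or with DMSO, and RNA was taken at 72 hours. The 5 lines with labelled columns were SKM-1, OCI-AML3, MOLM-14, MOLM-13 and KG-1, each with 3 decitabine and 3 DMSO libraries, 30 in all. MOLM-13 and MOLM-14 are sister lines from the same source, so they are not independent of each other. Wells were seeded in parallel, and whether the replicates were separate cultures is not stated, so the p-values rest on library-to-library spread that may be technical only.

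A T cell that meets its antigen reads further signals from the surface of the other cell. CD80 and CD86 give the activating signal through CD28 and an inhibitory one through CTLA-4, whereas PD-L1, PD-L2, galectin-9, VISTA and HVEM act mainly through inhibitory receptors such as PD-1, TIM-3 and BTLA. CD47 signals to SIRP-alpha on phagocytes and restrains engulfment. AML cells are of the myeloid lineage, whose normal monocytes and dendritic cells carry CD86, SIRP-alpha, TIM-3 and VISTA themselves.

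Decitabine acts on methylation at CpG dinucleotides, so the DNA just before the start sites is shown for the member that rose in all 5 lines (CD86), for the member whose response differed most between lines by the F-test (VSIR), and for an abundant member that was called in no line (CD47). DNA methylation itself was not measured in these libraries. The RefSeq promoter table (GRCh38.p14) held 7 of the 10 members in 8 windows, and HAVCR2, SIRPA and PDCD1LG2 were not among them. Each window below is the 250 bases before a start site, written 5′ to 3′ on the gene's strand, with CpG in capitals.
CD86, first start site, chr3:122055112-122055361 (+): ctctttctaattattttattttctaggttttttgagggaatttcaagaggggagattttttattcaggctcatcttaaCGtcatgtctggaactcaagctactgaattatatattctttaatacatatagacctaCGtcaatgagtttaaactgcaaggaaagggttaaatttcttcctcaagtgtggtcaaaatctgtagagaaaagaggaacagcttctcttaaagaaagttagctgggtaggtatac
CD86, second start site, chr3:122077534-122077783 (+): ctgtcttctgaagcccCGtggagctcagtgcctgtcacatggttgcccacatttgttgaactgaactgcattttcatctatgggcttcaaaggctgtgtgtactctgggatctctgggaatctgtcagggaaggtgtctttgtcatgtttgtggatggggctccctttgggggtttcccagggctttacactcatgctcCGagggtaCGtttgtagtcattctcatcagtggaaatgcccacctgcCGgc
VSIR, chr10:71773521-71773770 (-): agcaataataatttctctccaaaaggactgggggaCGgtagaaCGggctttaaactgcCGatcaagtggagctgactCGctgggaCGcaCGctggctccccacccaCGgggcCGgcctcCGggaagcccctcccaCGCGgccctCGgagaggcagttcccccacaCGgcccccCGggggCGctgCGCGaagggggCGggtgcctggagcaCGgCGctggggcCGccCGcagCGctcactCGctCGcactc
CD47, chr3:108091032-108091281 (-): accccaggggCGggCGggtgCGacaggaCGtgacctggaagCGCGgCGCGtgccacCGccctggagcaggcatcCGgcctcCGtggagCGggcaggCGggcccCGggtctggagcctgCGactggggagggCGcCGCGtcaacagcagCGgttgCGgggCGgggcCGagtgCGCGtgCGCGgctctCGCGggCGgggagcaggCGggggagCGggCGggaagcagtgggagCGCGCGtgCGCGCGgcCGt
The CD86 windows held 2 and 4 CpG, VSIR 25 and CD47 39. Among all 35116 windows of the same length the median was 11 CpG, with quartiles of 3 and 23. The first CD86 window thus lay below the lower quartile and the second between the lower quartile and the median, while those of VSIR and CD47 lay above the upper quartile. The other windows held 16 CpG for CD274, 9 for TNFRSF14, 6 for CD80 and 1 for LGALS9. Those of CD274, TNFRSF14 and LGALS9 overlap annotated exons of the same genes. The CD47 window and the second CD86 window lie within the annotated gene spans given below. Of the 3 motifs searched on both strands, the interferon-type motif of GAAA, any 2 bases and GAAA again was found at 2 places in the CD274 window and is in 3.02% of all windows. The related motif TTCNNNGAA was found once in the CD274 window and is in 6.57% of all windows. GAGGAA, the core bound by myeloid ETS factors, was found at 2 places in the first CD86 window and is in 23.6% of all windows. These are matches of letters and not measured sites.

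All values are the authors' DESeq2-normalised counts, a scale on which libraries can be compared for the same gene. The read depth behind them, estimated from the value that a single read takes in each library, ran from 1970000 to 75000000 reads. In OCI-AML3, MOLM-14 and KG-1, replicate 2 of each arm was shallow, which made 6 shallow libraries (1970000 to 4590000 reads, in which 1 read is worth a normalised count of 4.30 to 10.3). The other 24 libraries had 12600000 to 75000000 reads. MOLM-13 (from 42900000) and SKM-1 (from 50900000) were deepest, and panel values of the tested members other than CD80 and CD274 are also given within these 2 lines and within the other 3. Pan-leukocyte and myeloid markers were present: PTPRC (CD45) was at 3643 to 12169, CD33 at 570 to 2346 and SPI1 (PU.1) at 666 to 2182 in every library. Others of that list were low in some libraries, with ANPEP from 0.970, CD34 from 1.90 and KIT at 0 in 3. CD14, the defining marker of mature monocytes, was at most 5.36 and at 0 in 12 of 30 libraries. Other monocyte and macrophage markers varied: MRC1 was at 0 in 17 libraries and FCGR3A in 14. LYZ (540 to 15066), CD68 (28.2 to 6213) and S100A9 (29.1 to 16734) were above 0 in every library. Of the lymphoid markers, MS4A1 (CD20) was at 0 in 25 libraries, while KLRD1 (9.01 to 269) and NKG7 (5.61 to 238) were above 0 in all. The mitochondrial share of the values was higher with decitabine without overlap in MOLM-13 (18.2 to 19.1% against 12.5 to 14.1%), SKM-1 (15.5 to 18.2% against 13.7 to 15.1%) and MOLM-14 (10.5 to 11.5% against 8.06 to 9.09%). With values rescaled to the total without mitochondrial genes, every count of members called below was the same.

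On the mean of the 5 lines, 4 of the 9 tested members rose with decitabine and none fell (limma; at an unadjusted p under 0.05, 5 were higher and 0 lower). They were CD86, SIRPA, LGALS9 and VSIR, and the background was 19.5% of all tested genes called in either direction (12% rose and 7.52% fell). The median log2 fold change of the 9 tested members was 0.33, beside 0.06 over all tested genes. CD86 rose in every line. The other rises were uneven: SIRPA was called in KG-1, LGALS9 in SKM-1, and VSIR in MOLM-14 and SKM-1. In these bulk libraries, more cells of a kind and more RNA per cell cannot be told apart.

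**Figure D1:**
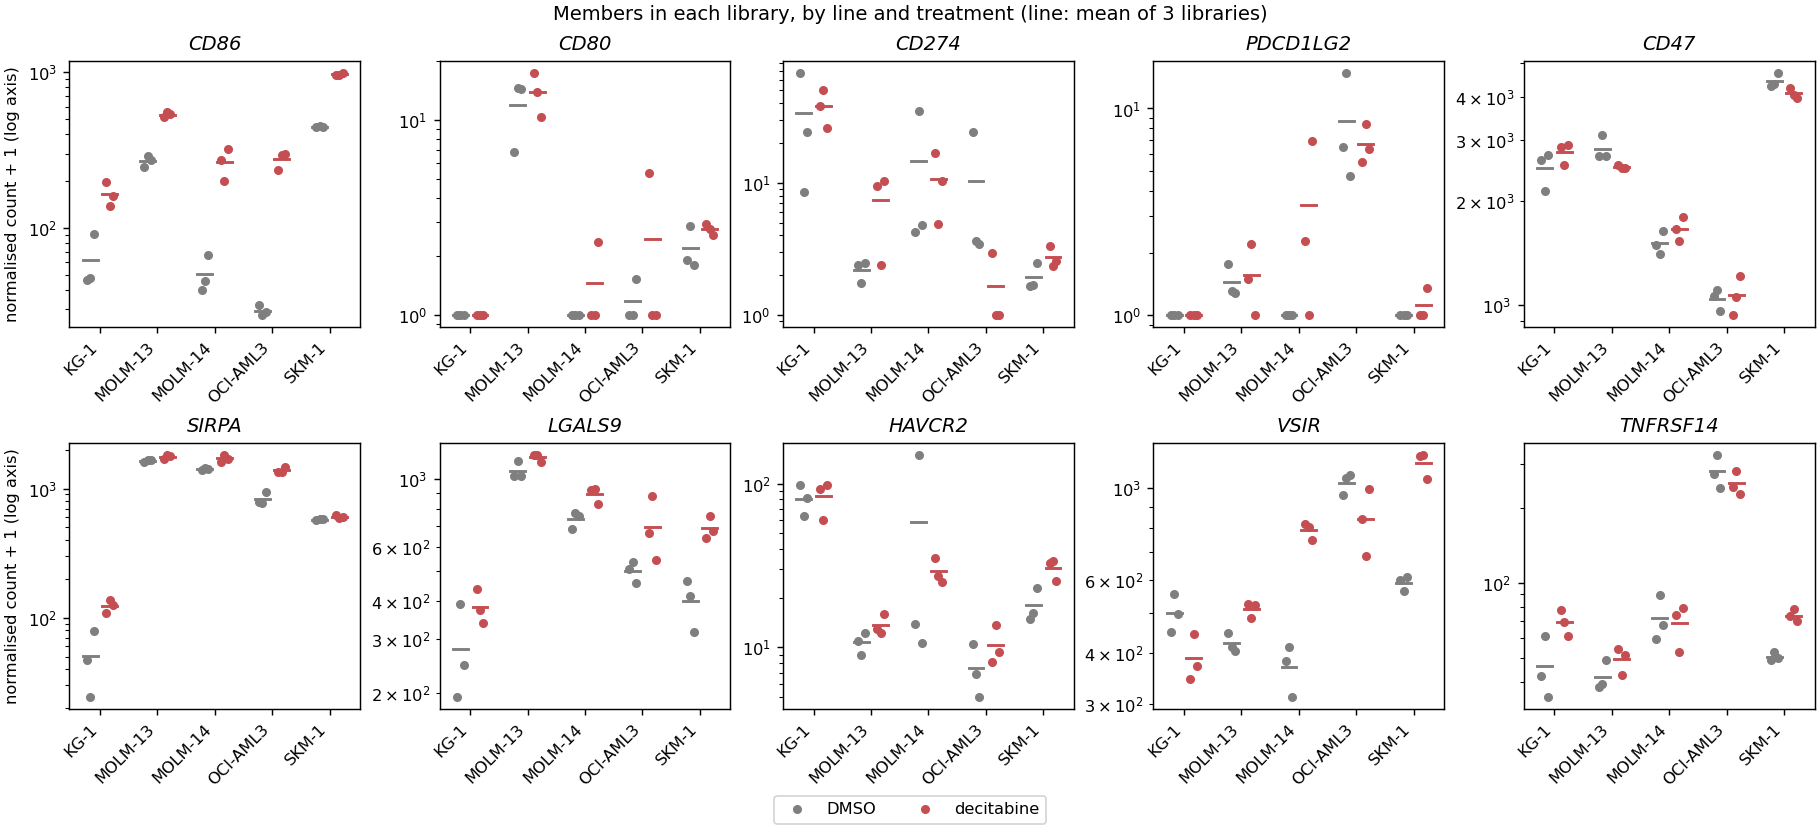
Each panel shows a member's normalised count + 1 (log axis) in every library, by line; grey points are DMSO, red points decitabine, and the short bars the mean of 3 libraries. The red CD86 points lie above the grey ones in all 5 lines, from 136 to 984 against 26.6 to 451, while the CD47 points lie between 934 and 4685 in both arms.

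CD86, the B7 ligand that myeloid cells use to costimulate T cells through CD28, is on chromosome 3 (GRCh38, 122055366 to 122121139, plus strand, ENSG00000114013.16). In OCI-AML3 its normalised count was 30.9, 26.6 and 27.996 in the DMSO libraries (replicates 1 to 3) and 233, 294 and 298 in the decitabine libraries. In MOLM-14 it was 38.8, 44.3 and 66.4 with DMSO and 271, 199 and 321 with decitabine. The KG-1 libraries gave 45.03, 46.8 and 90.6 with DMSO and 197, 136 and 158 with decitabine. These were the lines with little CD86 at the start, and in each the groups did not overlap. In MOLM-13 CD86 was already at 246, 288 and 274 with DMSO and reached 513, 552 and 535. In SKM-1, the highest line, it went from 445, 451 and 444 to 956.5, 961 and 984. Again no decitabine library lay within the DMSO range.

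The rise of CD86 was 3.22 on the log2 scale in OCI-AML3 (SE 0.22; limma, BH-adjusted p = 9.77e-10), a 9.33-fold higher level. It was 2.39 in MOLM-14 (adjusted p = 8.01e-08), 1.47 in KG-1 (adjusted p = 0.000126), 1.11 in SKM-1 (adjusted p = 0.00126) and 0.99 in MOLM-13 (adjusted p = 0.0128), with the same SE in each line, since the fit pools the spread. The panel mean was 1.84 (SE 0.10, adjusted p = 1.48e-12), with 1.05 within MOLM-13 and SKM-1 (adjusted p = 1.24e-08) and 2.36 within the other 3 lines (adjusted p = 7.19e-07). CD86 ranked 126th of the tested genes by its panel rise. Only 17 tested genes, 0.0767%, were called as risen in each of the 5 lines, and CD86 was among them. The size of the response differed between lines (F-test, adjusted p = 5.19e-05; 9.46% of tested genes passed this test). After decitabine the lines lay closer together: the ratio of the highest to the lowest line mean was 15.7 with DMSO (447 in SKM-1 to 28.5 in OCI-AML3) and 5.9 with decitabine (967 in SKM-1 to 164 in KG-1). The MOLM-13 call was lost on leaving out MOLM-13 decitabine replicate 1, 2 or 3 (adjusted p = 0.0534, 0.0533 and 0.0561) or DMSO replicate 1 (adjusted p = 0.0841), with fold changes between 0.92 and 1.01. The shallow DMSO libraries of OCI-AML3, MOLM-14 and KG-1 held only about 3.85, 4.41 and 7.05 CD86 reads.

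CD80, the other B7 ligand of CD28 and CTLA-4, was close to absent. Its locus on chromosome 3 (119524293 to 119559602, minus strand, ENSG00000121594.12) overlaps TIMMDC1 on the opposite strand. No read was assigned to it in any of the 6 KG-1 libraries or the 3 MOLM-14 DMSO libraries. MOLM-13 had the most, at 5.89, 13.6 and 13.5 with DMSO and 16.4, 12.8 and 9.41 with decitabine. The SKM-1 values were 0.921, 1.88 and 0.817 with DMSO and 1.91, 1.75 and 1.57 with decitabine. OCI-AML3 had 0, 0 and 0.529 with DMSO and 4.37, 0 and 0 with decitabine, and MOLM-14 had 0, 0 and 1.36 with decitabine. The groups overlapped in every line. The panel mean difference was 0.32 (SE 0.23, limma, BH-adjusted p = 0.368), and a change was not detectable at this depth.

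**Figure D2:**
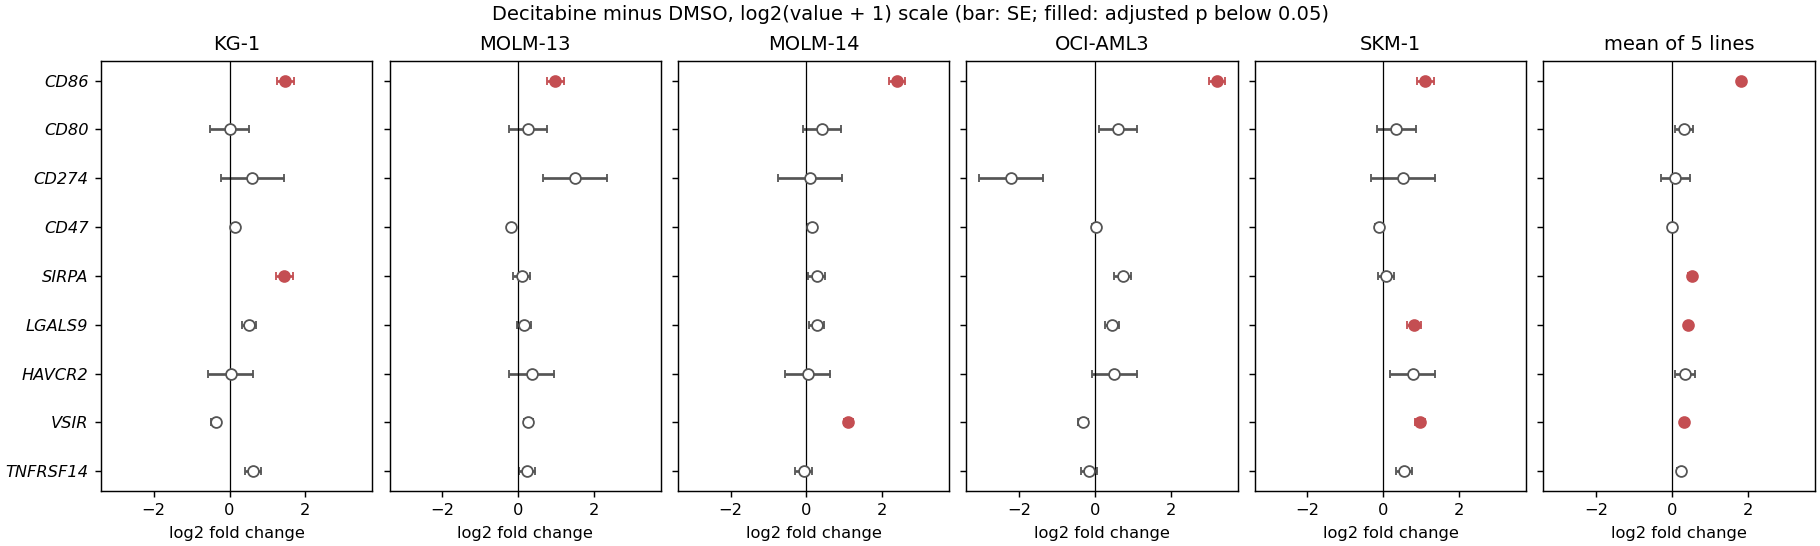
Log2 fold change (decitabine minus DMSO, points with SE bars) of the 9 tested members in each line and on the mean of 5 lines; filled points passed an adjusted p below 0.05. CD86 is filled in every line, from 0.99 in MOLM-13 to 3.22 in OCI-AML3, and CD47 lies between -0.17 and 0.15 throughout.

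The PD-1 ligands were low in all 5 lines. CD274 is on chromosome 9 (5450503 to 5470566, plus strand, ENSG00000120217.14), with PDCD1LG2 further along the same strand (5510570 to 5571254, ENSG00000197646.8). CD274 was highest in KG-1, at 66.4, 7.58 and 23.3 with DMSO and 36.7, 49.3 and 24.95 with decitabine. In MOLM-13 it was 1.38, 0.754 and 1.46 with DMSO and 8.43, 1.39 and 9.27 with decitabine, where 2 of the 3 decitabine libraries exceeded the DMSO range. MOLM-14 had 3.26, 33.6 and 3.77 with DMSO and 15.8, 3.91 and 9.32 with decitabine. The value of 33.6 stood for about 3.35 reads in a shallow library. OCI-AML3 was the line without overlap, with 23.1, 2.63 and 2.42 with DMSO and 1.96, 0 and 0 with decitabine, and SKM-1 had at most 2.35. The OCI-AML3 difference was -2.22 (SE 0.84, limma, BH-adjusted p = 0.138), and the highest DMSO value there was about 16.7 reads. The MOLM-13 difference was 1.498 (adjusted p = 0.525), and it passed only with library weights (1.58, adjusted p = 0.0102). The panel mean was 0.10 (SE 0.38, adjusted p = 0.899), and a change of CD274 was not detectable at this depth.

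PDCD1LG2, which encodes the second PD-1 ligand, was at 0 in all 6 KG-1 libraries and in the DMSO libraries of MOLM-14 and SKM-1. OCI-AML3 held the most, with 5.54, 13.8 and 3.74 with DMSO and 4.54, 7.42 and 5.35 with decitabine, and these groups overlapped. The highest of these values, 13.8, stood for 2 reads. MOLM-13 had at most 1.202, MOLM-14 with decitabine 1.27, 0 and 5.98, and SKM-1 with decitabine 0, 0 and 0.347. No test was run on it.

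CD47, the signal that restrains phagocytosis, had the highest DMSO level per length of exon of any member in SKM-1, MOLM-13 and KG-1, and it had the smallest panel difference of the tested members. The gene lies on chromosome 3 (108043094 to 108091862, minus strand, ENSG00000196776.16). SKM-1 had 4306, 4345 and 4685 with DMSO and 4257, 4059 and 3982 with decitabine. MOLM-13 had 2690.0, 3098 and 2699.9 with DMSO and 2537, 2486 and 2492 with decitabine. In both lines every decitabine value lay below every DMSO value, but the differences were -0.12 (SE 0.10, limma, BH-adjusted p = 0.702) and -0.17 (adjusted p = 0.566). In KG-1 the values were 2624, 2139 and 2718 with DMSO and 2868, 2536.5 and 2895 with decitabine, and in MOLM-14 they were 1494, 1401 and 1639 against 1655, 1533 and 1795. OCI-AML3 had 1063, 1101 and 958 with DMSO and 934, 1053 and 1208 with decitabine. The groups overlapped in these 3 lines. The panel mean was 0.01 (SE 0.05, adjusted p = 0.95), but within MOLM-13 and SKM-1 alone it was -0.14 (adjusted p = 0.0137) and within the other 3 lines 0.11 (adjusted p = 0.496).

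SIRPA encodes the receptor for CD47 on phagocytes and is itself a myeloid surface marker. It is on chromosome 20 (1894167 to 1940592, plus strand, ENSG00000198053.11) and overlaps the antisense gene AL117335.1. KG-1 had the least, at 46.5, 23.5 and 78.2 with DMSO, and reached 108, 137 and 124 with decitabine. OCI-AML3 went from 784, 775 and 947 to 1345, 1331 and 1475. The MOLM-14 libraries held 1400.3, 1437 and 1411 with DMSO and 1614, 1823 and 1705 with decitabine. None of these groups overlapped. In MOLM-13 the values were 1618, 1654 and 1654 against 1693, 1816 and 1771, and in SKM-1 566, 579 and 578 against 625, 586 and 605. Every decitabine value thus lay above every DMSO value in each of the 5 lines for SIRPA as for CD86, the only members of which this held, and for 0.501% of all tested genes. The rise passed the test in KG-1 (1.45, SE 0.22; limma, BH-adjusted p = 0.00014) and not in OCI-AML3 (0.73, adjusted p = 0.0525), MOLM-14 (0.27, adjusted p = 0.485), MOLM-13 (0.10, adjusted p = 1) or SKM-1 (0.08, adjusted p = 0.996). The OCI-AML3 value passed in 5 of 41 alternatives. Over the panel the difference was 0.53 (SE 0.10, adjusted p = 0.00034), with 0.09 within MOLM-13 and SKM-1 (adjusted p = 0.0485) and 0.82 within the other 3 lines (adjusted p = 0.00548). The responses differed between lines (F-test, adjusted p = 0.014), and the ratio of the highest to the lowest line mean fell from 33.2 with DMSO to 14.3. SIRPB1, a near relative of SIRPA, was at 91.3 to 1992, and reads that fit both could be divided between them.

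LGALS9 encodes galectin-9, a secreted and surface lectin that binds TIM-3. Its locus is on chromosome 17 (27629798 to 27649560, plus strand, ENSG00000168961.17) and overlaps AC015688.4 on the same strand. In SKM-1 it was at 464, 415 and 317 with DMSO and 639, 754 and 676 with decitabine. MOLM-14 had 688, 773 and 757 against 917, 923 and 829. OCI-AML3 had 509, 533 and 456 against 667, 879 and 541. The groups did not overlap in these 3 lines. In MOLM-13 the values were 1022, 1146 and 1019 with DMSO and 1197, 1194 and 1139 with decitabine, and in KG-1 194, 390.0 and 247 against 435, 372 and 337, with overlap in both. The SKM-1 rise was 0.80 (SE 0.19; limma, BH-adjusted p = 0.0053), and it fell short without SKM-1 DMSO replicate 3 (0.65, adjusted p = 0.0561). The other lines had 0.15 to 0.52 and were not called. KG-1 passed without its shallow DMSO replicate 2 (0.79, adjusted p = 0.0079), the library with 390.0. The panel mean was 0.44 (SE 0.08, adjusted p = 0.000424), with 0.48 within MOLM-13 and SKM-1 (adjusted p = 0.000568) and 0.41 within the other 3 lines (adjusted p = 0.0724). A difference of response between lines was not called (F-test, adjusted p = 0.423). The near-identical copies LGALS9B and LGALS9C were at most 13.7 and 43.2.

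HAVCR2 encodes TIM-3, which is known on exhausted T cells and on leukaemic stem cells. The gene is on chromosome 5 (157085832 to 157142869, minus strand, ENSG00000135077.9), and its annotated span holds MED7 on the same strand, so its values are uncertain by whatever reads the counting shared between them. KG-1 had the most, at 96.5, 62.4 and 80.9 with DMSO and 91.7, 58.8 and 97.1 with decitabine. SKM-1 had 13.9, 15.3 and 21.97 with DMSO and 31.7, 32.5 and 24.6 with decitabine, the only line without overlap (0.78, SE 0.59; limma, BH-adjusted p = 0.617). MOLM-14 had 12.9, 149 and 9.65 with DMSO and 34.1, 26.4 and 24.1 with decitabine. The DMSO value of 149 came from the shallow replicate 2, where it stood for about 14.8 reads, and it set the result: without that library the MOLM-14 difference was 1.248 (adjusted p = 0.0344) in place of 0.04, and the panel mean was 0.59 (adjusted p = 0.0057) in place of 0.34 (SE 0.26, adjusted p = 0.424). Without all 6 shallow libraries the panel mean was 0.56 (adjusted p = 0.00415). It was 0.57 within MOLM-13 and SKM-1 (adjusted p = 0.00982) and 0.19 within the other 3 lines (adjusted p = 0.867). MOLM-13 had 9.99, 7.94 and 11.2 against 12.0, 11.2 and 15.1, and OCI-AML3 9.47, 5.91 and 3.99 against 7.11, 12.7 and 8.36, both with overlap.

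VSIR encodes VISTA, a B7-like inhibitory molecule of myeloid cells. It is on chromosome 10 (71747559 to 71773498, minus strand, ENSG00000107738.20), within the span of CDH23 on the opposite strand. In MOLM-14 it rose from 380.1, 413 and 312 with DMSO to 819, 807 and 747 with decitabine. In SKM-1 it rose from 599, 563 and 608 to 1198, 1205 and 1054. MOLM-13 held 447, 411 and 404 with DMSO and 525, 484 and 520 with decitabine. No groups overlapped in these 3 lines, and decitabine was the higher arm. In KG-1 the order was the opposite, without overlap: 447, 554 and 495 with DMSO and 346, 444 and 371 with decitabine. OCI-AML3 had 963, 1059 and 1074 with DMSO and 841, 684 and 998 with decitabine, with overlap of a single pair of libraries. The log2 fold change was 1.11 in MOLM-14 (SE 0.13; limma, BH-adjusted p = 1.72e-06) and 0.96 in SKM-1 (adjusted p = 7e-06). It was 0.28 in MOLM-13 (adjusted p = 0.349), -0.37 in KG-1 (adjusted p = 0.128) and -0.31 in OCI-AML3 (adjusted p = 0.175), and none of these 3 was called. A few alternatives did call them. VSIR fell in KG-1 without the shallow libraries (-0.39, adjusted p = 0.0494) and in OCI-AML3 without decitabine replicate 3 (-0.44, adjusted p = 0.0427). It rose in MOLM-13 with library weights (0.29, adjusted p = 0.00194) and with the line fitted alone (0.28, adjusted p = 0.0221). The sister lines MOLM-13 and MOLM-14 thus gave values far apart, a pair whose difference was not tested on its own.

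The difference of the VSIR response between lines passed the F-test (adjusted p = 1.44e-06), with the lowest adjusted p among the members. Averaged over such unlike lines, the panel difference was 0.33 (SE 0.06, adjusted p = 0.000114 by limma with BH). It was not called without MOLM-14 (0.14, adjusted p = 0.126) or without SKM-1 (0.18, adjusted p = 0.125), and it was 0.62 within MOLM-13 and SKM-1 (adjusted p = 1.36e-06) and 0.14 within the other 3 lines (adjusted p = 0.456). The order of the lines changed with treatment. OCI-AML3 was highest with DMSO (mean 1032) and SKM-1 with decitabine (mean 1152), and the ratio of the highest to the lowest line mean stayed near 3 (2.8 with DMSO and 2.98 with decitabine).

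**Figure D3:**
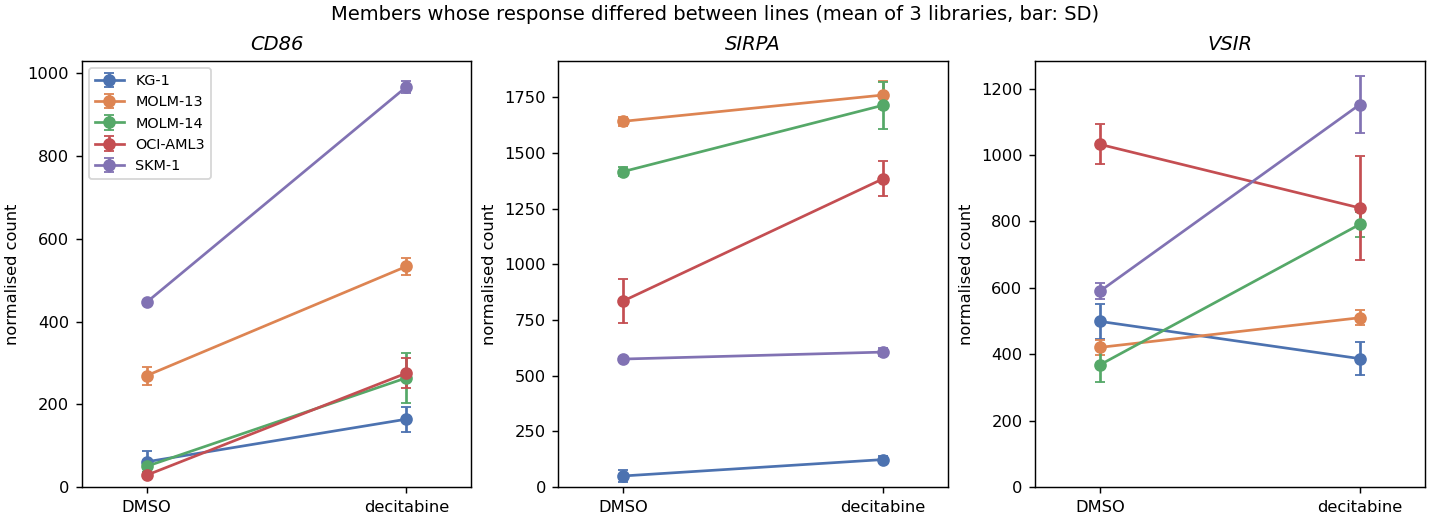
Line means of the normalised count (linear axis, bars SD over 3 libraries) with DMSO and decitabine for the 3 members whose response differed between lines. CD86 goes up in all 5 lines, SIRPA most steeply in OCI-AML3 on this linear axis, and the VSIR lines cross, with SKM-1 reaching a mean of 1152 and OCI-AML3 going from 1032 to 841.

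TNFRSF14 encodes HVEM, the partner of BTLA, CD160 and LIGHT. It is on chromosome 1 (2555639 to 2565382, plus strand, ENSG00000157873.17), next to TNFRSF14-AS1 on the opposite strand. OCI-AML3 stood apart with 273, 326 and 241 with DMSO and 241, 282 and 227 with decitabine. SKM-1 had 47.8, 51.5 and 48.9 against 72.3, 77.4 and 69.0, the only line without overlap (0.55, SE 0.22; limma, BH-adjusted p = 0.14). In KG-1 the values were 41.4, 60.2 and 33.9 with DMSO and 76.6, 68.4 and 60.1 with decitabine (0.62, adjusted p = 0.142). These groups overlapped by the shallow DMSO replicate 2, which held about 9.06 reads, and the KG-1 value passed without it (0.84, adjusted p = 0.0372). MOLM-13 had 37.0, 38.1 and 47.8 against 53.4, 41.8 and 50.2, and MOLM-14 had 58.3, 88.5 and 67.0 against 73.4, 52.0 and 78.2, both with overlap. The panel mean was 0.24 (SE 0.10, adjusted p = 0.0985). It passed in 8 of 47 alternatives, among them without the 6 shallow libraries (0.36, adjusted p = 0.00126) and within MOLM-13 and SKM-1 (0.39, adjusted p = 0.00587), beside 0.13 within the other 3 lines (adjusted p = 0.721).

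By line, the members called were few. In KG-1 they were CD86 and SIRPA (2 of 9; 3.78% of all tested genes were called), in MOLM-13 CD86 (1 of 9; 3.13%), in MOLM-14 CD86 and VSIR (2 of 9; 11%), in OCI-AML3 CD86 (1 of 9; 5.37%) and in SKM-1 CD86, LGALS9 and VSIR (3 of 9; 9.02%). The number of members whose DMSO and decitabine values did not overlap was 3 of 9 in KG-1, 4 in MOLM-13, 4 in MOLM-14, 4 in OCI-AML3 and 7 in SKM-1. Over all tested genes this share was 16.7%, 39.9%, 20.7%, 17.5% and 48.1% in the same order. In SKM-1 the members without overlap were CD86, SIRPA, LGALS9, HAVCR2, VSIR and TNFRSF14, all higher with decitabine, and CD47, which was lower.

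The lines differed in their starting levels of all 9 tested members (F-test on the DMSO libraries, limma, BH-adjusted p from 7.15e-16 for SIRPA to 0.00177 for CD274), as did 77.9% of all tested genes. Per kilobase of exon, the DMSO line means of CD47 ran from 127 in OCI-AML3 to 540 in SKM-1. On this scale SIRPA ran from 9.74 in KG-1 to 324 in MOLM-13, VSIR from 71.8 in MOLM-14 to 201 in OCI-AML3, LGALS9 from 48.4 in KG-1 to 186 in MOLM-13, and CD86 from 8.30 in OCI-AML3 to 130 in SKM-1. TNFRSF14 ran from 6.59 to 45.01, HAVCR2 from 1.70 to 21.0, CD274 from 0.228 to 7.90, CD80 from 0 to 3.44 and PDCD1LG2 from 0 to 3.25. CD47, VSIR and LGALS9 were thus present in every line, SIRPA and CD86 at levels that depended on the line, and the PD-1 ligands and CD80 at the lower end.

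In the order of DMSO levels, CD86 went from SKM-1 to MOLM-13, KG-1, MOLM-14 and OCI-AML3, and among neighbours KG-1 and MOLM-14 were not told apart (limma, BH-adjusted p = 0.409). CD47 followed the order SKM-1, MOLM-13, KG-1, MOLM-14 and OCI-AML3, with MOLM-13 and KG-1 not told apart (adjusted p = 0.133). SIRPA went from MOLM-13 to MOLM-14, OCI-AML3, SKM-1 and KG-1, and the sister lines at the top were not told apart (adjusted p = 0.491). That test used the spread pooled over all groups. The DMSO values of the sister lines themselves did not overlap (1618 to 1654 in MOLM-13 and 1400 to 1437 in MOLM-14). LGALS9 had the order MOLM-13, MOLM-14, OCI-AML3, SKM-1 and KG-1, with OCI-AML3 and SKM-1 not told apart (adjusted p = 0.139). KG-1 was thus lowest for both SIRPA and LGALS9.
For VSIR the order was OCI-AML3, SKM-1, KG-1, MOLM-13 and MOLM-14, and only the step from OCI-AML3 to SKM-1 passed (adjusted p = 9.46e-06; the others 0.114 to 0.237). TNFRSF14 had the order OCI-AML3, MOLM-14, SKM-1, KG-1 and MOLM-13, and only its first step passed (adjusted p = 7.16e-08; the others 0.0625 to 0.725). HAVCR2 had the order KG-1, MOLM-14, SKM-1, MOLM-13 and OCI-AML3, where KG-1 exceeded MOLM-14 (adjusted p = 0.0417) and no other step passed. The second place of MOLM-14 rests on its shallow replicate: the mean was 57.2 with it and 11.3 without it, below the 17.1 of SKM-1. For CD80, MOLM-13 exceeded SKM-1 (adjusted p = 0.000363), and for CD274 no neighbours were told apart (adjusted p from 0.118 to 0.929).

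The genes whose level over the 10 group means was most like a member's are given as a description. For CD86 they were RTF2 (Pearson r = 0.946) and AL627309.1 (0.943), for SIRPA ELANE, a granule protease of myeloid precursors (0.985), and TIFAB (0.982), and for VSIR MALINC1 (0.92) and ELMO2 (0.914). LGALS9 was most like AC011472.3 (0.973) and TMEM30A (0.97), CD47 like ADGRG3 and CYRIB (both 0.983), and TNFRSF14 like OAS3 (0.98) and AC010973.2 (0.979). HAVCR2 was most like AHDC1 (0.978) and AL731577.2 (0.973), CD80 like PNOC (0.986) and UPK3A (0.976), and CD274 like SPATS2 (0.965) and ORMDL3 (0.944). With 5 lines behind the 10 means, levels that differ by line weigh most in these values.

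The partners and relatives of the members were counted on the panel mean against the same 19.5% of tested genes called. Of the other B7 ligands and CD28-family receptors, 7 of 10 were tested and limma called none (median log2 fold change 0.24; at an unadjusted p under 0.05, 1 was higher and 1 lower). The lower one was NCR3LG1 (B7-H6), the ligand of the NK cell receptor NKp30, which fell in SKM-1 (-0.87, limma, BH-adjusted p = 1.95e-07) and rose in KG-1 (0.52, adjusted p = 0.000775). Its panel mean of -0.11 (adjusted p = 0.0715) was called as fallen in 9 of 47 alternatives, among them within MOLM-13 and SKM-1 (-0.52, adjusted p = 4.37e-07), without KG-1 (-0.26, adjusted p = 7.92e-05) and without OCI-AML3 (-0.19, adjusted p = 0.00229).
Of the TIM-3, galectin and VISTA partners, 3 of 6 rose and 1 fell (median 0.35). Galectin-3 (LGALS3) rose by 1.48, galectin-1 (LGALS1) by 0.90 and galectin-8 (LGALS8) by 0.34, while HMGB1, a TIM-3 ligand, fell by 0.27 on the log2 scale. In the 3 lines other than MOLM-13 and SKM-1, neither LGALS1 (0.68, limma, BH-adjusted p = 0.0762) nor HMGB1 (-0.23, adjusted p = 0.068) was called.
Of the phagocytosis signals and SIRP relatives, 5 of 15 rose and 1 fell (median 0.23). The receptor tyrosine kinase genes AXL (1.75) and MERTK (0.85), which mediate uptake of dying cells, and the SIRP relative SIRPB2 (1.34) rose. PTPN11, which encodes the phosphatase SHP-2 that SIRP-alpha recruits, fell by 0.16 on the log2 scale, but not without SKM-1 (-0.12, limma, BH-adjusted p = 0.12) or under quantile normalization (-0.09, adjusted p = 0.127). MERTK was not called without OCI-AML3 (0.64, adjusted p = 0.137) or without SKM-1 (0.88, adjusted p = 0.0834).

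Of the nectins and their receptors, among them TIGIT and DNAM-1 (CD226) of T and NK cells, 3 of 10 rose (median 0.26): NECTIN4 (2.36), CD226 (1.18) and NECTIN2 (0.43). Within SKM-1 and MOLM-13, NECTIN2 missed the threshold (0.17, limma, BH-adjusted p = 0.108). Of the costimulatory TNF-superfamily genes, 4 of 15 rose (median 0.18), among them CD70 (0.57), the ligand of CD27, and TNFSF9 (0.58), the ligand of 4-1BB. TNFSF9 was called in 41 of 47 alternatives; it missed the threshold on leaving out MOLM-13 (0.63, BH-adjusted p = 0.0572 by limma) or MOLM-14 (0.54, adjusted p = 0.0784), and within MOLM-13 and SKM-1 (0.13, adjusted p = 0.116) and within the other 3 lines (0.89, adjusted p = 0.0993). TNFRSF4 (OX40) was called at 1.12 (adjusted p = 0.0475) but in only 14 of 47 alternatives. The remaining gene of the 4 was TNFSF14 (LIGHT), a ligand of HVEM, which rose by 0.35 (adjusted p = 4.13e-05). That value was 0.06 without OCI-AML3 (adjusted p = 0.499) and within SKM-1 and MOLM-13 the direction turned to a called fall (-0.30, adjusted p = 0.000426). TNFSF14 fell in SKM-1 (-0.72, adjusted p = 0.000165) and rose in OCI-AML3 (1.48, adjusted p = 1.33e-08) and MOLM-14 (0.91, adjusted p = 1.33e-05).
Other inhibitory receptors, ligands and enzymes had 8 of 14 risen (median 0.60), with FGL1, a ligand of LAG-3, at 1.54, NT5E (CD73), which makes adenosine, at 1.21 and VSIG4 at 1.04. NT5E was called in 44 of 47 alternatives, FGL1 in 43 and VSIG4 in 42. FGL1 did not pass the filter without MOLM-14, without OCI-AML3 or within MOLM-13 and SKM-1, nor when 10 was required in 6 libraries. It passed only with both MOLM-14 and OCI-AML3 included and on few libraries, so its rise is weak support. Of the inhibitory genes 7 of 12 tested rose within SKM-1 and MOLM-13, and 1 of 13 within the other 3 lines. The count was 3 of 14 without SKM-1, 3 of 14 without MOLM-13 and 5 of 13 without KG-1. Calls over all tested genes moved as well, from 4333 to 8547, 1131, 2292, 3185 and 4512 in the same order of settings. The adhesion partners of T and NK cells had 5 of 8 risen (median 0.55), led by SLAMF1 (1.22), LY9 (0.86) and CD84 (0.73). SLAMF1 was called in 42 of 47 alternatives. It missed the threshold within MOLM-13 and SKM-1 (0.94, limma, BH-adjusted p = 0.059) and within the other 3 lines (1.40, adjusted p = 0.176). LY9 was not called within those 3 lines either (0.80, adjusted p = 0.0627). The adhesion count was 4 of 8 within MOLM-13 and SKM-1, 2 of 8 within the other 3 lines and 3 of 8 without SKM-1. Over all tested genes 8547, 1131 and 2292 were called in these settings. Known regulators of CD274 had 4 of 20 risen and 2 fallen, with a median of -0.01. STAT2 rose by 0.50 and JAK1 by 0.44, both of the interferon pathway, and MYC fell by 0.74 on the log2 scale. Only 2 of these regulators rose without SKM-1 and 0 within KG-1, MOLM-14 and OCI-AML3, settings in which 2292 and 1131 of all tested genes were called. Within those 3 lines STAT2 (0.40, limma, BH-adjusted p = 0.0945) and JAK1 (0.50, adjusted p = 0.0784) were not called.

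**Figure D4:**
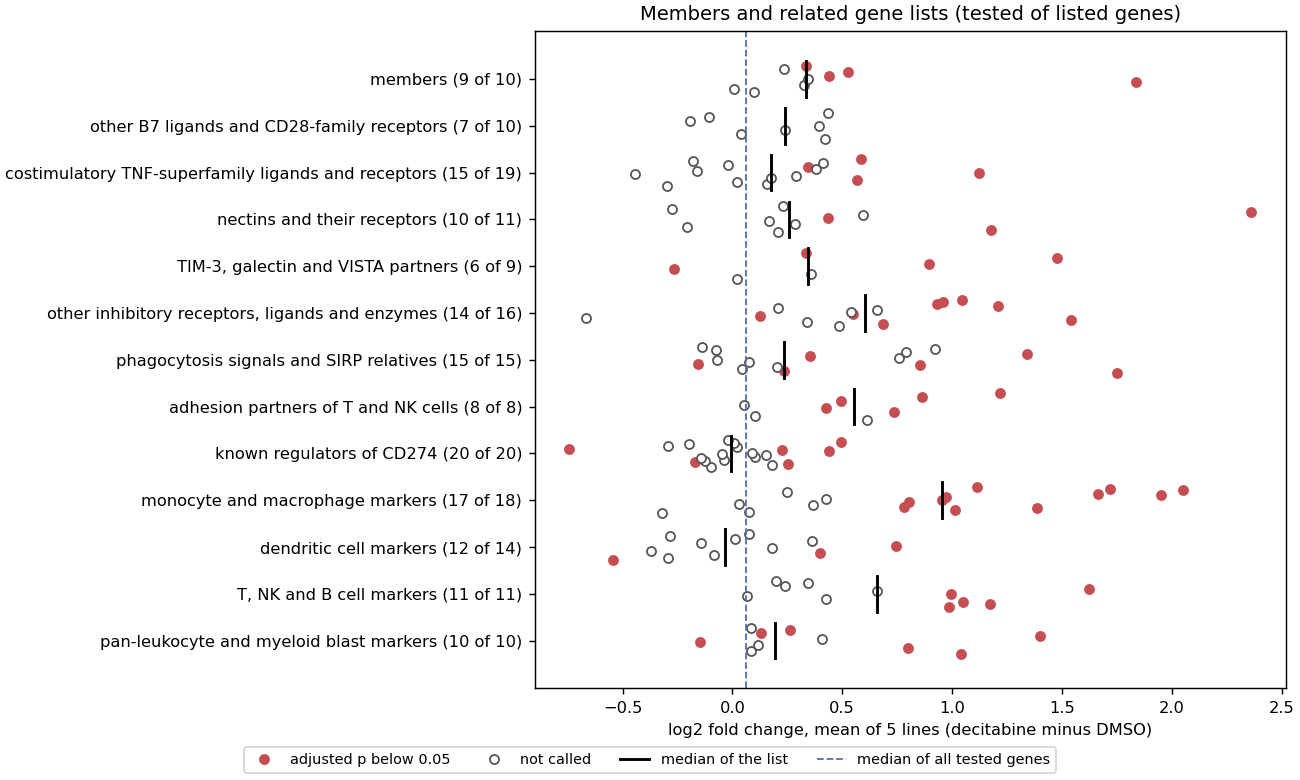
Each row is a gene list and each point a tested gene, placed by its log2 fold change on the mean of 5 lines (decitabine minus DMSO); red points passed an adjusted p below 0.05, black bars are list medians and the dashed line the median of all tested genes (0.06). The members have 4 red points and a median of 0.33, and the monocyte and macrophage markers 11 red points and a median of 0.95.

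Of the monocyte and macrophage markers 11 of 17 tested rose and none fell (median 0.95; at an unadjusted p under 0.05, 11 were higher and 0 lower), among them S100A8 (2.05) and S100A9 (1.72). The summed normalised count of the 18 listed markers was higher with decitabine, without overlap, in each line, also in MOLM-13 and OCI-AML3, where CD86 was the member called. In KG-1 it was between 3112 and 3314 with DMSO and between 4219 and 4684 with decitabine. MOLM-13 had between 10477 and 10726 against between 19240 and 20033, and MOLM-14 between 7814 and 9233 against between 18718 and 19733. In OCI-AML3 the sums were between 11851 and 13176 with DMSO and between 25938 and 29668 with decitabine, and in SKM-1 between 26279 and 27672 against between 48173 and 49151. CD86, SIRPA and VSIR are themselves expressed by monocytes. CD14 stayed at 5.36 or below. The part of this marker change in the members' rise was not tested.

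Dendritic cell markers had 2 of 12 risen and 1 fallen (median -0.03). CD83, which mature dendritic cells carry, rose by 0.40 and BATF3 fell by 0.54 on the log2 scale, which was not called without MOLM-14 (-0.26, limma, BH-adjusted p = 0.153). FCER1A was called in only 16 of 47 alternatives. The summed level was lower with decitabine, without overlap, in MOLM-13 (8057 to 8729 with DMSO and 7054 to 7446 with decitabine). It overlapped in the other 4 lines, as in SKM-1 (2603 to 2722 with DMSO and 2582 to 2735 with decitabine), and XCR1 was at 0 in 27 libraries. T, NK and B cell markers had 5 of 11 risen (median 0.66), among them GNLY, CD3D and CD3E. GNLY passed the filter only through the 3 SKM-1 decitabine libraries, so its rise cannot count as support. The lymphoid count was 0 of 10 without SKM-1 (median 0.26), 0 of 10 within KG-1, MOLM-14 and OCI-AML3, and 2 of 7 without KG-1. Over all tested genes 2292, 1131 and 4512 were called in these settings, in the same order. In SKM-1 the summed level of the T, NK and B cell markers was 140.0 to 157 with DMSO and 347 to 378 with decitabine. It was also higher without overlap in KG-1 (498 to 606 against 706 to 879), MOLM-13 (129.8 to 150.1 against 153 to 241) and MOLM-14 (117 to 221 against 222 to 277), and in OCI-AML3 it overlapped, with 232 to 324 with DMSO and 175 to 249 with decitabine. CD3D and CD3E were not called without SKM-1 (0.61, adjusted p = 0.223, and 0.22, adjusted p = 0.701), and GNLY did not pass the filter there. The lymphoid count was 2 without SKM-1 decitabine replicate 1, 2 or 3. It was 3 without KG-1 decitabine replicate 3 or DMSO replicate 1, MOLM-13 decitabine replicate 1 or 2 or DMSO replicate 2 or 3, replicate 2 of either arm of MOLM-14, OCI-AML3 decitabine replicate 2 or SKM-1 DMSO replicate 1. Their part in the members' results was not tested. Of the pan-leukocyte and blast markers 5 of 10 rose and 1 fell (median 0.20), with MPO at 1.40, ANPEP (CD13) at 1.04 and CD34 at 0.80. CD34 was called in 40 of 47 alternatives. The CD34 call was lost without SKM-1 (0.28, limma, BH-adjusted p = 0.645), without MOLM-13 (0.82, adjusted p = 0.0681), without the 6 shallow libraries (0.43, adjusted p = 0.0858) and within KG-1, MOLM-14 and OCI-AML3 (0.15, adjusted p = 0.891), and the MPO call without KG-1 (0.87, adjusted p = 0.0989).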

How the data were processed

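RNA was read as stranded, single-end total RNA libraries, per the labels' protocols. The authors deposited a table of DESeq2-normalised counts, a signal that is never negative, for 60240 genes; the raw counts were not used here. The submitters' processing notes name Salmon 1.2.1, STAR, featureCounts, DESeq2, limma and hg38; the annotation release, the strand setting and the role of each tool are not given in the sources used here. Columns of the 30 labelled libraries were used. The 12 libraries labelled THP-1 or OCI-AML2 were not analysed here, and 12 HL-60 columns without a labelled sample were not used. For OCI-AML3, MOLM-14 and KG-1, columns were assigned from the line, the treatment letter and the number in their names, and MOLM-14 is not named in the series' design text.

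Values were taken as log2(value + 1). The 22168 genes that reached 10 in 3 or more libraries were fitted with limma 3.58.1 in R 4.3.3, on 10 group means (20 residual degrees of freedom), with variances moderated by trend and robustly (statmod 1.5.0). P-values are two-sided and Benjamini-Hochberg (BH) adjusted over all tested genes, with calls at 0.05. Fold changes are on the log2(value + 1) scale, which understates the change of low genes. F-tests compared the responses, and the DMSO levels, of the 5 lines. The fit was tested on simulated data with the same spread of a gene in every library. That test therefore does not cover the unequal depth and spread of the real libraries. Depth is the total of a library over its most frequent low value, which stands for 1 read, and covers counting error only. Coordinates and exon lengths came from GENCODE 29 (GRCh38; 58064 table genes matched) and promoters from RefSeq. All 10 members are named. From each list the text names at most the 3 called genes with the largest absolute panel difference, defining markers at or near 0, and the genes that complete a count of 5 or fewer, the last chosen after their values were seen. Some listed genes are counted but not reported by name here. The members and lists were chosen with earlier results of these data known. Alternatives changed the pseudocount, the filter, the scaling, the library weights, the libraries or lines included and the replicate block.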

Additional observations from a re-analysis of the deposited data

Results flagged for a closer look

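The response to decitabine of 3 members differed between the 5 lines by the F-test on the fitted differences (limma, BH-adjusted over all tested genes): CD86 (adjusted p = 5.19e-05), SIRPA (adjusted p = 0.014) and VSIR (adjusted p = 1.44e-06). This test was passed by 9.46% of all tested genes. CD86 was higher with decitabine in all 5 lines and ranged from 0.99 in MOLM-13 to 3.22 in OCI-AML3 on the log2 scale. SIRPA was also higher in all 5, from 0.08 in SKM-1 to 1.45 in KG-1. VSIR was lower with decitabine in KG-1 (-0.37) and OCI-AML3 (-0.31) and higher in the other 3 lines, up to 1.11 in MOLM-14. No group had more than 3 libraries, so no test for a single outlying library was made.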

How the results depend on the processing

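The counts of members called depended on how the libraries were weighted and on which lines were included. With library weights they were 4 in KG-1, 4 in MOLM-13 (3 rose and 1 fell), 2 in OCI-AML3 and 5 in SKM-1. The panel mean then had 6 risen in place of 4, and 5 members differed in response between lines. Without the 6 shallow libraries they were 5 in KG-1 (4 rose and VSIR fell), 2 in OCI-AML3 and 5 in SKM-1. The panel mean again had 6 risen, and 5 members differed in response. HAVCR2 was then also called in MOLM-14 (1.29, limma, BH-adjusted p = 0.0117). A pseudocount of 5 gave 2 in OCI-AML3. On the panel mean, MOLM-13 and SKM-1 alone gave 7 members and the other 3 lines alone 2, and CD47 changed sign in MOLM-13 and SKM-1 alone (-0.14). An alternative chosen after seeing the data, each line fitted alone, gave 0 in KG-1, 2 in MOLM-13 and 5 in SKM-1; in KG-1 limma gave 2 at an unadjusted p under 0.05, with CD86 at an adjusted p of 0.119 and SIRPA at 0.235. Leaving out each library in turn gave 2 to 4 members in KG-1, 0 to 1 in MOLM-13, 2 to 3 in MOLM-14, 1 to 2 in OCI-AML3, 2 to 3 in SKM-1 and 4 to 6 on the panel mean. The cause of these shifts was not tested, except that fewer libraries or lines enter some of the fits. CD86 on the panel mean, in MOLM-14, in OCI-AML3 and in SKM-1 was called under every alternative run, as was VSIR in MOLM-14 and SKM-1.

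The counts over all tested genes moved too, with 4333 called on the panel mean. That count was 8547 in MOLM-13 and SKM-1 alone, 1131 in the other 3 lines alone and 2292 without SKM-1. It was 5869 with library weights and 6374 without the shallow libraries. In SKM-1 1999 genes were called, 8283 with library weights and 4619 without the shallow libraries; in MOLM-13 693, 5651 and 2731; in OCI-AML3 1191, 640 and 2164. In KG-1 838 were called, and 1264 without the shallow libraries. Quantile normalization moved the median of all tested genes in SKM-1 from 0.08 to -0.08 and called 284 genes in MOLM-13. Fitted alone, the lines gave 109 genes in KG-1, 4918 in MOLM-13, 328 in MOLM-14, 54 in OCI-AML3 and 7447 in SKM-1. The replicate numbers were not taken to pair the arms, since 6 of 15 same-numbered pairs had a correlation of deviations above 0.1 (range -0.0225 to 0.153). The lines differed in this: in the 3 lines whose replicate 2 is shallow in both arms, all 9 same-numbered pairs were positive (0.0703 to 0.153) and each exceeded every differently numbered pair of its libraries, against 2 of 6 in MOLM-13 and SKM-1. With the replicate block the panel count was 4 and no other count of members changed, but CD34 (adjusted p = 0.0622) and TNFSF9 (adjusted p = 0.0562) were not called and NCR3LG1 was called as fallen (-0.11, adjusted p = 0.0258). CD34 was also not called at a pseudocount of 5 (adjusted p = 0.0514), and neither CD34 (adjusted p = 0.115) nor TNFSF9 (adjusted p = 0.0561) with quantile normalization.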
